A study of Mus musculus with 78 samples.

Results

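The basement membrane genes followed here, 9 in number, were read through the first lineages of the mouse embryo. They were the laminin chains Lama1, Lama5, Lamb1 and Lamc1, the collagen IV chains Col4a1 and Col4a2, the linkers Nid1 (nidogen 1) and Hspg2 (perlecan), and Sparc, a secreted collagen-binding glycoprotein. All were taken by gene symbol from the expression tables of the series. All 9 were found among the 22563 genes shared by the 3 tables, and all 9 passed the filter on low values that left 13493 genes for testing. The series asked how methylation, gene expression and chromatin contacts change as the embryo sets up its lineages, and 30 of its 78 samples were RNA-seq libraries, read here as FPKM (fragments scaled to transcript length and to the mapped fragments of the library).

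Each of 15 groups had 2 libraries, all from C57BL/6N females mated to DBA/2N males and all made by a Smart-Seq2 method. E3.5 inner cell mass, E3.5 trophectoderm and E4.0 inner cell mass came from superovulated mothers, were separated by immunosurgery and were lysed directly. E5.5 and E6.5 epiblast and visceral endoderm, and E7.5 ectoderm, primitive streak, mesoderm and endoderm, came from natural matings, and their RNA was purified with the RNeasy Plus Micro Kit. The change of preparation falls between E4.0 and E5.5, so that preparation and stage cannot be told apart in comparisons across that gap. A further set of embryos came from superovulated mothers and was grown in CMRL medium with 20% fetal bovine serum for 1 day, 2 days or 4 days. After 4 days, epiblast and visceral endoderm were parted by enzyme digestion and dissection, whereas the 1-day and 2-day samples were labelled as whole embryos although their protocol describes an isolated inner cell mass. The protocol gives E4.5 as the stage of recovery, whereas the column names of the 1-day and 2-day libraries carry an E4.0 tag, so the starting age of those 4 libraries is uncertain. The number of embryos pooled per library is not given in the sources used here, nor is whether replicates came from separate litters, so p-values measure only the spread between these libraries.

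The basement membrane is the thin sheet of matrix under epithelia. A laminin molecule is a trimer of an alpha, a beta and a gamma chain that polymerises on the cell surface, collagen IV, a trimer built from the products of Col4a1 and Col4a2, forms the second network, and nidogen and perlecan link the networks. In the peri-implantation embryo the primitive endoderm and its descendants, the visceral and parietal endoderm, are known producers of this matrix, and the epiblast sits on it as it becomes an epithelium.

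Col4a1 and Col4a2 lie head to head, and their start regions are printed because these genes gave the closest pair of profiles among the 9 members. RefSeq windows of 300 bases around a start site, most of them upstream of it (build GRCm38.p6), were given for 7 of the 9 members. Lama1 and Lamc1 were not among them. The Col4a1 window spans chr8:11312777-11313076 on the minus strand and the Col4a2 window chr8:11312555-11312854 on the plus strand. The start sites in the table lie 21 bases apart, and the 78 bases common to both windows (chr8:11312777-11312854) are in capitals, each 5′ to 3′ on its gene's own strand.
Col4a1: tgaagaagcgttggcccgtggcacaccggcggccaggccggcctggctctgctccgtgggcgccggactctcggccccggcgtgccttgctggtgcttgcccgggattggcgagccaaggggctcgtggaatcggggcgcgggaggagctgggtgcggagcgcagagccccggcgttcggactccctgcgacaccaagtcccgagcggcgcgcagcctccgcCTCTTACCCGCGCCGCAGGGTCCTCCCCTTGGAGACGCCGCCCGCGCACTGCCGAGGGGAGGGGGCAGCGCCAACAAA
Col4a2: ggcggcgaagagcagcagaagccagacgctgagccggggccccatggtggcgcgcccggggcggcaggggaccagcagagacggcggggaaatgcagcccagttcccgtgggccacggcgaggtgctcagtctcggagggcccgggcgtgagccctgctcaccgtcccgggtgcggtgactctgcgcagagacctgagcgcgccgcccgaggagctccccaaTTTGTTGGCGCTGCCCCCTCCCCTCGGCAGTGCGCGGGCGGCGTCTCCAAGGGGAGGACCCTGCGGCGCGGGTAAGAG
The shared stretch is 73.1% G or C and holds 9 CG dinucleotides and 1 GGGCGG match. RefSeq gene spans of the pair overlap by 85 bases, where reads without strand could belong to either gene.

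The Sparc window stands apart from the other 6 in base composition and is shown with its CG dinucleotides in capitals (chr11:55420031-55420330, minus strand).
Sparc: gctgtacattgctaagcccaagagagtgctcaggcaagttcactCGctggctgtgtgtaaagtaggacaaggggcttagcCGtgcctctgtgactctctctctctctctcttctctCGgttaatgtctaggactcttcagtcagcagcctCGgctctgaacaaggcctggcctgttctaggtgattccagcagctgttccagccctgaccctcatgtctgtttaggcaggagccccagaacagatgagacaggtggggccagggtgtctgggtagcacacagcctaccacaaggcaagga
It holds 4 CG dinucleotides at 55.3% G or C, while the other 6 windows hold 18 to 37 at 63.7 to 74.0%. Over all 32851 windows the medians are 7 CG dinucleotides and 52.7% G or C. The letters GGGCGG, searched on both strands, occurred in 6 of the 7 windows, in all but that of Sparc, and in 35.7% of all windows. The 1 match in the Col4a1 window lies in the stretch shared with Col4a2, so both windows count it. GGGCGG is made of G and C only, and these 6 windows are richer in both than the median window. CCAAT occurred in 4 of 7 against 37.4% of all, TATAA in 1 of 7 (Nid1) against 24.9%, and GATAA in 0 of 7 against 25.4%. None of these 4 motifs contains another, and a match describes the letters only.

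The sum of FPKM per library ran from 272055 to 486836 in vivo, 353746 to 404797 after 4 days of culture and 534537 to 579224 after 1 and 2 days. Depth is unknown because FPKM hold no counts. Replicates correlated at r = 0.898 to 0.994 across genes. Visceral endoderm markers (Afp, Ttr, Apoa1, Amn, Cubn) summed to 2906 to 6233 FPKM in the E5.5 and E6.5 visceral endoderm libraries and to 2.00 to 17.4 in epiblast of those stages. Epiblast markers (Pou5f1, Nanog, Sox2, Utf1, Fgf5) summed to 67.0 to 145 in E5.5 and 263 to 271 in E6.5 visceral endoderm against 792 to 928 in epiblast. The E7.5 endoderm libraries carried visceral endoderm markers at 5061 to 5549 FPKM. Primitive endoderm markers (Gata6, Gata4, Sox17, Sox7, Pdgfra) summed to 19.3 to 22.8 FPKM in them, with Sox17 at 1.95 and 1.84. In these bulk samples fewer cells of a type and less RNA per cell cannot be told apart.

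**Figure D1:**
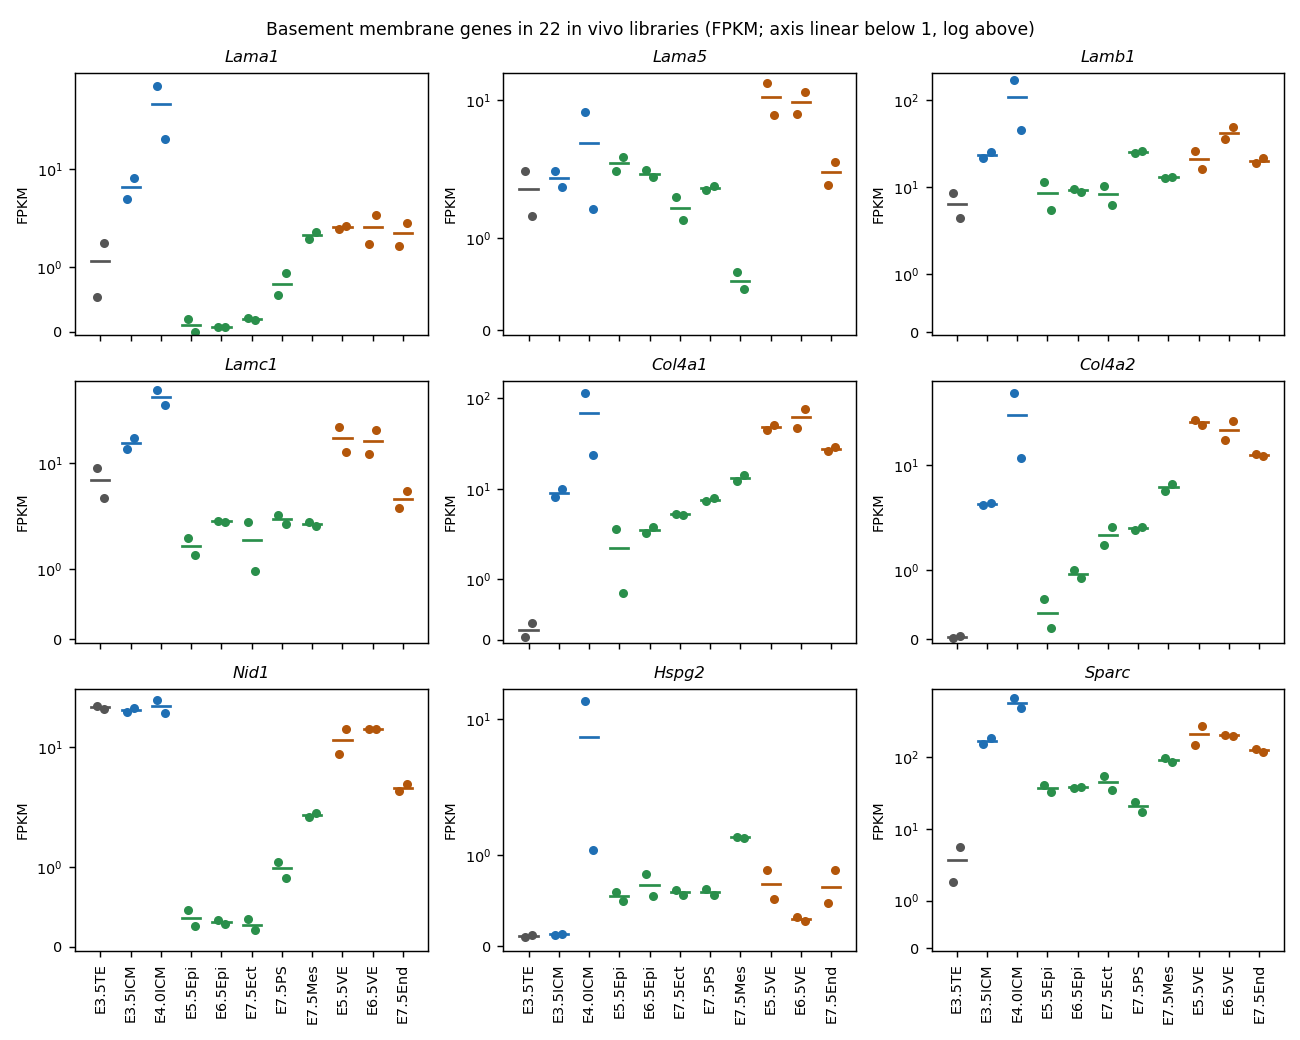
Expression of the 9 genes in 22 in vivo libraries. Each point is 1 library, the bar is the mean of 2, and the FPKM axis is linear below 1 and logarithmic above. All but Lama5 had their highest mean in E4.0 inner cell mass (Sparc, 582 FPKM), where replicate 1 lies above replicate 2 for 9 of 9 genes. The E4.0 libraries overlapped those of the group next in mean for Lamb1, Col4a1, Col4a2, Nid1 and Hspg2. They lay apart for Lama1, Lamc1 and Sparc. The share of all genes with their highest mean there was not counted.

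Of the whole set, Sparc had the highest level in 26 of 30 libraries, with Nid1 highest in both trophectoderm and Lamb1 in both primitive streak libraries. Its in vivo means ran from 3.72 ± 2.69 FPKM (SD, n = 2) in trophectoderm to 582 ± 133 in E4.0 inner cell mass. Hspg2 lay at the other end, at or above 1 FPKM in 4 of 22 in vivo libraries, those of E4.0 inner cell mass and E7.5 mesoderm, through which it passed the filter (1 FPKM in 2 libraries). The order of levels was clear only in places. With groups ordered by mean, the libraries of neighbouring groups did not overlap in 7 of 10 steps for Col4a1, Col4a2 and Sparc, 6 for Nid1, 4 for Lama1 and Lamc1, 3 for Lamb1 and Hspg2, and 1 for Lama5. The order came from the means of these same libraries, and such steps were not counted over all genes. The counts therefore only describe the members.

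At E3.5 the inner cell mass held more transcript than the trophectoderm for 5 of 9 members. A call needed a limma adjusted p under 0.05 (Benjamini-Hochberg over all 13493 genes) and a difference of at least 1 in log2(FPKM+1). Called higher were Lama1, Lamb1, Col4a1, Col4a2 and Sparc, against 9.54% of all genes called higher. None was lower, against 7.75%.

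Among laminin chains, Lama1, the alpha chain of laminin-111, stood at 5.01 and 8.13 FPKM in inner cell mass and 0.543 and 1.75 in trophectoderm. The groups did not overlap (log2 difference 1.85 ± 0.58 SE, limma adjusted p = 0.0277). Lamb1, the beta1 chain shared by most embryonic laminins, stood at 21.7 and 25.3 against 8.50 and 4.41 FPKM (1.77 ± 0.50, limma adjusted p = 0.0151). Lamc1, the gamma1 chain without which these trimers do not form, stood at 13.8 and 17.3 against 9.12 and 4.70 FPKM. Its difference of 1.12 ± 0.39 just missed the threshold (limma adjusted p = 0.0501). Lama5, the alpha chain of laminin-511, overlapped between the tissues at 3.09 and 2.37 against 3.08 and 1.45 FPKM.

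The collagen IV chains were close to absent from trophectoderm. Col4a1 was 8.08 and 9.94 FPKM in inner cell mass and 0.0535 and 0.279 in trophectoderm (3.10 ± 0.56, limma adjusted p = 0.000395). Col4a2 was 4.21 and 4.38 against 0.0138 and 0.0442 FPKM (2.36 ± 0.42, limma adjusted p = 0.000376). Nid1 did not follow the chains it links, since trophectoderm held 21.9 and 20.7 FPKM and inner cell mass 19.6 and 21.2, so that the groups overlapped (log2 difference -0.06 ± 0.42). Hspg2 was at 0.0981 to 0.137 FPKM in all 4 libraries.

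Sparc gave the largest difference of the 9. It stood at 154 and 185 FPKM in inner cell mass and 1.81 and 5.62 in trophectoderm (5.30 ± 0.41, limma adjusted p = 7.93e-09).

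Trophectoderm thus held Lamb1, Lamc1 and Lama5 message, and its Lamb1 to Lamc1 ratio of 0.932 and 0.939 was the lowest among in vivo groups. The difference for Lama1 did not pass without inner cell mass replicate 1 or 2 or trophectoderm replicate 1 (limma adjusted p = 0.0623, 0.202 and 0.230), and that for Lamb1 without inner cell mass replicate 1 or 2 or trophectoderm replicate 2 (0.0624, 0.102 and 0.123). Lamc1 passed without trophectoderm replicate 1 (0.0344). A fit on these 4 libraries alone called 3 members, and Lama1 also missed the threshold with a pseudocount of 0.1 FPKM (0.0929) and with no filter on low values (0.0594). Lamc1 also passed with a filter at 5 FPKM (0.0461). Trophectoderm markers (Cdx2, Gata3, Krt8, Krt18, Tfap2c) summed to 179 to 262 FPKM in inner cell mass and 1304 to 2982 in trophectoderm, and the part of mixed cells in these differences was not tested.

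Of 11 collagen biosynthesis genes tested, 4 were called higher in inner cell mass and 0 lower, against 9.54% and 7.75% of all genes. Plod2, a lysyl hydroxylase, was 23.5 against 0.257 FPKM (mean, log2 difference 4.24, limma adjusted p = 0.000135), and P4ha1, a subunit of collagen prolyl hydroxylase, 17.9 against 1.16 (3.13). Of 12 other basement membrane genes, 0 were higher and 3 lower in inner cell mass. Tinagl1, a laminin-binding matrix protein, was 3.44 FPKM there and 53.8 in trophectoderm (-3.57, limma adjusted p = 3.11e-06).

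From E3.5 to E4.0, 7 of 9 members rose in the inner cell mass, with 15.8% of all genes called higher and 4.8% lower. Those were Lama1, Lamb1, Lamc1, Col4a1, Col4a2, Hspg2 and Sparc. Lama5 and Nid1 were not called. The median difference was 1.85 over the members and 0.27 over all genes tested.

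The size of the rise rested on 1 library. Col4a1 was 8.08 and 9.94 FPKM at E3.5 and 114 and 23.8 at E4.0 (2.42 ± 0.56, limma adjusted p = 0.00343). Lamb1 was 21.7 and 25.3, then 169 and 44.8 FPKM (1.85 ± 0.50, limma adjusted p = 0.00987). Lama1 was 5.01 and 8.13, then 72.2 and 20.6 FPKM (2.43 ± 0.58, limma adjusted p = 0.00428).

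In these genes both E4.0 libraries lay above both E3.5 libraries, and replicate 1 lay far above replicate 2. All 9 members were higher in replicate 1 of E4.0, by 1.27-fold (Nid1) to 12.5-fold (Hspg2). On log2(FPKM+1), replicate 1 minus replicate 2 had a median of 1.8 over the members and 0 over all genes tested. Without replicate 1 only Col4a2 (1.28, limma adjusted p = 0.0184) and Sparc (1.53, 0.0426) remained called. Lama1 (1.55, 0.103), Lamb1 (0.91, 0.246), Lamc1 (1.15, 0.112) and Col4a1 (1.31, 0.111) no longer passed, and Hspg2 (0.88, 0.0247) fell short of the size threshold. Without replicate 2 of E4.0, Lama5 passed too (1.31, limma adjusted p = 0.0468).

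Sparc and Lamc1 had the closest E4.0 replicates of the genes that rose. Sparc was 154 and 185 FPKM at E3.5 and 676 and 488 at E4.0 (1.76 ± 0.41, limma adjusted p = 0.00345). Lamc1 was 13.8 and 17.3, then 49.6 and 35.5 FPKM (1.39 ± 0.39, limma adjusted p = 0.0135). Col4a2 was 4.21 and 4.38, then 49.0 and 11.9 FPKM (2.26 ± 0.42, limma adjusted p = 0.000612).

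Hspg2, the heparan sulfate proteoglycan of the sheet, went from 0.126 and 0.137 FPKM to 13.6 and 1.09 (2.29 ± 0.49, limma adjusted p = 0.00196). Its E4.0 libraries differed 12.5-fold, while that SE is pooled over 15 groups, so the call is weak. These E4.0 libraries were also among those that passed Hspg2 through the filter, although the E7.5 mesoderm libraries alone would have done so. Nid1 was 19.6 and 21.2, then 24.4 and 19.2 FPKM, with overlap (0.09 ± 0.42). Nid2, the paralogue of Nid1 and no member of the 9, rose from a mean of 0.495 to 30.7 FPKM (4.29, limma adjusted p = 7.27e-07).

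The marker values of the E4.0 libraries differed in part. Visceral endoderm markers summed to 121 FPKM in replicate 1 and 38.2 in replicate 2, with Amn, a receptor subunit of the visceral endoderm, at 111 and 33.3 and Afp at 0 in both. Primitive endoderm markers (Gata6, Gata4, Sox17, Sox7, Pdgfra) summed to 95.7 and 108 FPKM, above 43.1 and 45.2 at E3.5, and the part of either in the member values was not tested. Without E3.5 replicate 1, Lama1, Lamb1 and Lamc1 did not pass (limma adjusted p = 0.0550, 0.0726 and 0.106). With a pseudocount of 0.1 FPKM Lama1 missed the threshold (0.0854). With quantile normalization, which moved the median of all genes from 0.27 to 0.00 and the share of higher calls from 76.7% to 49.6%, Lamc1 was no longer called (0.94, 0.103). A fit on these 4 libraries alone called 2 members.

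In the E4.0 inner cell mass the alpha chains were out of balance. Lama1 exceeded Lama5 8.81-fold and 12.6-fold within the 2 libraries. At E3.5 the excess was 1.62-fold and 3.43-fold. In the 4 visceral endoderm libraries of E5.5 and E6.5 the order was turned, with Lama5 2.94-fold to 5.44-fold above Lama1. After 4 days of culture the 2 visceral endoderm libraries differed in that order (3.90 and 0.516 for Lama5 over Lama1).

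From E4.0 inner cell mass to E5.5 epiblast, 8 of 9 members fell, all but Lama5, against 8.94% of all genes called lower and 8.67% higher. The median difference was -4.02 over the members and 0.05 over all genes. From the same E4.0 libraries to E5.5 visceral endoderm, 5 members fell and 1 rose, against 25.7% of genes lower and 9.66% higher. Both comparisons share the E4.0 libraries. Both also span the change of preparation, which cannot be told apart from stage. Primitive endoderm markers summed to 95.7 to 108 FPKM in E4.0 inner cell mass, 0.0578 to 0.410 in E5.5 epiblast and 39.4 to 70.8 in E5.5 visceral endoderm. The part of this change of cell mix in the member differences was not tested.

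Among the laminin chains, Lama1 was 0.195 FPKM in replicate 1 and listed at 0 in replicate 2, down from 72.2 and 20.6 (-5.19 ± 0.58, limma adjusted p = 1.63e-06). Lamc1 fell to 1.97 and 1.36 FPKM (-4.02 ± 0.39, limma adjusted p = 3.53e-07). Lamb1 fell to 11.4 and 5.51 FPKM (-3.30 ± 0.50, limma adjusted p = 5.88e-05).

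Lama5 alone of the 9 was not called, at 3.07 and 3.91 FPKM against 8.19 and 1.64 (-0.14 ± 0.45, 95% interval -1.07 to 0.79). Col4a1 fell to 3.64 and 0.775 FPKM (-4.22 ± 0.56, limma adjusted p = 1.26e-05) and Col4a2 to 0.584 and 0.165 (-4.22 ± 0.42, limma adjusted p = 4.91e-07). Nid1 fell from 24.4 and 19.2 FPKM to 0.457 and 0.264 (-4.06 ± 0.42, limma adjusted p = 6.20e-07). Sparc fell to 40.7 and 32.9 FPKM (-3.94 ± 0.41, limma adjusted p = 7.09e-07), and Hspg2 to 0.595 and 0.50 (-1.84 ± 0.49, limma adjusted p = 0.0107).

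Without E4.0 replicate 1, 7 of these 8 falls remained and that of Hspg2 did not (-0.43, limma adjusted p = 0.309). Hspg2 also missed the threshold without E5.5 epiblast replicate 1 or 2 (0.0510 and 0.0603). A fit on these 4 libraries alone called 4 members. Of 11 collagen biosynthesis genes, 5 fell and 0 rose (8.94% and 8.67% of all genes), among them P4ha1 from 46.6 to 7.14 FPKM (-2.69, limma adjusted p = 0.000489). Col18a1, a basement membrane collagen outside the set, went the other way, from 3.56 to 43.5 FPKM (3.37, limma adjusted p = 0.00141).

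In E5.5 visceral endoderm the members went different ways. Collagen IV was not called, as Col4a1 at 44.0 and 51.0 FPKM and Col4a2 at 27.1 and 24.5 lay inside the range of the E4.0 libraries (-0.14 ± 0.56 and 0.08 ± 0.42). Lama1 fell to 2.43 and 2.65 FPKM (-3.49 ± 0.58, limma adjusted p = 8.02e-05). Lama5 rose to 13.2 and 7.81 FPKM (1.19 ± 0.45, limma adjusted p = 0.0389), with overlap since E4.0 replicate 1 was at 8.19.

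The other falls were Lamb1 to 26.0 and 16.0 FPKM (-2.04 ± 0.50), Lamc1 to 21.9 and 12.8 (-1.27 ± 0.39), Hspg2 to 0.843 and 0.514 (-1.73 ± 0.49) and Sparc to 151 and 276 (-1.49 ± 0.41). Their limma adjusted p-values ran from 0.00265 to 0.0133. Nid1, at 8.73 and 14.1 FPKM, was not called (-0.90, limma adjusted p = 0.0890).

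Several of these calls depended on single libraries. Without E4.0 replicate 1 the falls of Lamb1 (-1.10, limma adjusted p = 0.102), Lamc1 (-1.04, 0.108), Hspg2 (-0.32, 0.386) and Sparc (-1.25, 0.0630) did not pass, that of Lama1 did (-2.61, 0.00374), Lama5 was called at 2.09 (0.00108) and Col4a2 was called higher (1.06, 0.0294). Lama5 did not pass without E4.0 replicate 2 (0.29, limma adjusted p = 0.687) or E5.5 visceral endoderm replicate 1 (0.84, 0.279), with a pseudocount of 0.1 FPKM (0.0765) or with no filter (0.0660). Sparc did not pass without E5.5 visceral endoderm replicate 1 (-1.05, 0.115), nor Lamc1 and Hspg2 without its replicate 2 (-0.91, 0.145 and -1.58, 0.0529). The median of all genes lay at -0.31 in this comparison. Quantile normalization moved it to -0.02 and the share of higher calls from 27.3% to 49.3% and ended the call of Lamc1 (-0.55, 0.300), and a fit on these 4 libraries alone called 0 members.

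**Figure D2:**
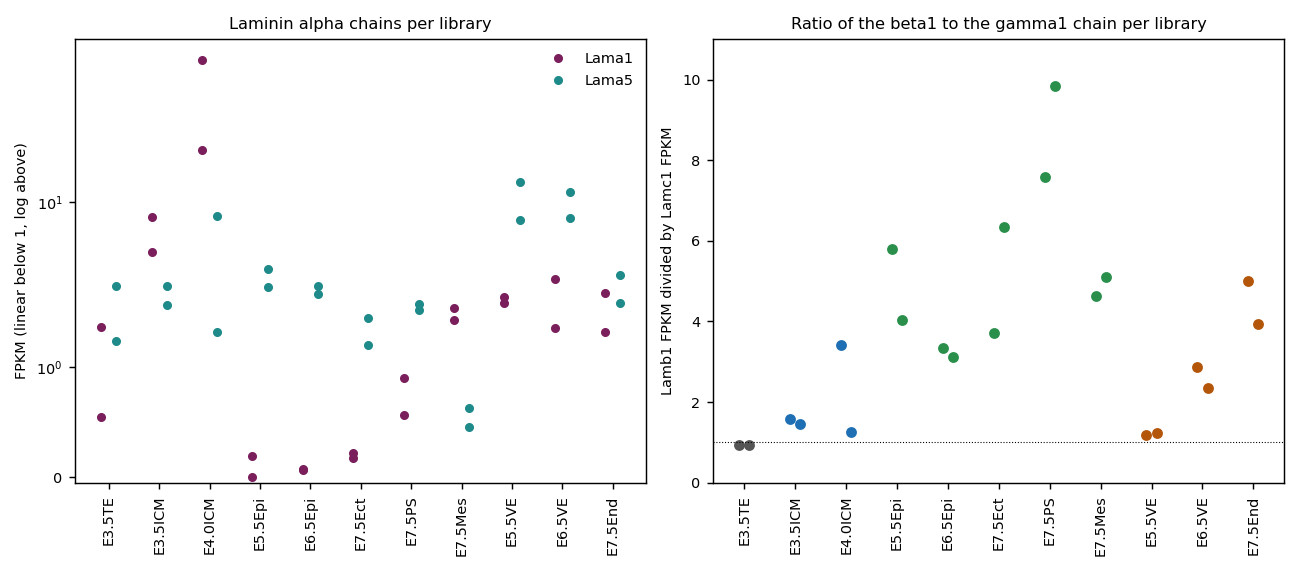
Left, Lama1 and Lama5 FPKM in each in vivo library, on an axis that is linear below 1 and logarithmic above. Right, Lamb1 FPKM divided by Lamc1 FPKM in each library, with the dotted line at equal levels. Lama1 lay above Lama5 in both libraries of E3.5 and E4.0 inner cell mass and of E7.5 mesoderm, and the Lamb1 to Lamc1 ratio reached 7.58 and 9.85 in primitive streak.

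Side by side within the egg cylinder, visceral endoderm exceeded epiblast for 8 of 9 members at E5.5, all but Hspg2, against 9.6% of all genes called higher and 27.1% lower. At E6.5 the same comparison called 8 higher, again all but Hspg2, against 9.58% higher and 6.95% lower. Members had a median difference of 2.45 at E5.5 and 2.14 at E6.5, where all genes had -0.36 and -0.06.

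On the log2(FPKM+1) scale collagen IV gave the widest gaps of the 9, although Nid1 (3.53) all but equalled Col4a2 at E6.5. That scale compresses the gap of genes whose epiblast values lie under 1 FPKM. At E5.5 Col4a2 was 27.1 and 24.5 FPKM in visceral endoderm and 0.584 and 0.165 in epiblast (4.30 ± 0.42, limma adjusted p = 3.11e-07). At E6.5 it was 17.4 and 26.5 against 1.00 and 0.884 FPKM (3.54 ± 0.42, limma adjusted p = 3.24e-06). No epiblast library came near the visceral endoderm.

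Col4a1 was 44.0 and 51.0 against 3.64 and 0.775 FPKM at E5.5 (4.08 ± 0.56, limma adjusted p = 1.13e-05) and 46.7 and 76.4 against 3.22 and 3.79 at E6.5 (3.76 ± 0.56, limma adjusted p = 4.44e-05). Nid1 was 8.73 and 14.1 against 0.457 and 0.264 FPKM at E5.5 (3.16 ± 0.42, limma adjusted p = 7.51e-06). At E6.5 Nid1 was 14.2 and 14.1 against 0.336 and 0.278 FPKM (3.53 ± 0.42, limma adjusted p = 2.70e-06). Nid1, which overlapped between the tissues of the blastocyst, did not overlap between these layers.

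Of the laminin chains Lamc1 differed most on the log2(FPKM+1) scale. Lamc1 was 21.9 and 12.8 FPKM in visceral endoderm and 1.97 and 1.36 in epiblast at E5.5 (2.75 ± 0.39, limma adjusted p = 1.67e-05), and 12.3 and 20.5 against 2.86 and 2.81 at E6.5 (2.14 ± 0.39, limma adjusted p = 0.000412). Lamb1 was 26.0 and 16.0 against 11.4 and 5.51 FPKM at E5.5, a difference near the threshold (1.25 ± 0.50, limma adjusted p = 0.0485). At E6.5 Lamb1 was 35.4 and 48.5 against 9.53 and 8.80 FPKM (2.06 ± 0.50, limma adjusted p = 0.00484).

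Both alpha chains were also higher in visceral endoderm. Lama5 was 13.2 and 7.81 against 3.07 and 3.91 FPKM at E5.5 (1.32 ± 0.45, limma adjusted p = 0.0213) and 8.01 and 11.5 against 3.12 and 2.76 at E6.5 (1.43 ± 0.45, limma adjusted p = 0.0274). Lama1 was 2.43 and 2.65 FPKM against 0.195 and 0 at E5.5 (1.70 ± 0.58, limma adjusted p = 0.0224). At E6.5 Lama1 was 1.72 and 3.40 against 0.0702 and 0.0682 FPKM (1.70 ± 0.58, limma adjusted p = 0.0437). The pseudocount of 1 FPKM compresses these low epiblast values, so the Lama1 differences cannot be ranked against those of Lamc1 as fold changes.

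Sparc was 151 and 276 FPKM in visceral endoderm against 40.7 and 32.9 in epiblast at E5.5 (2.45 ± 0.41, limma adjusted p = 7.85e-05). At E6.5 Sparc was 204 and 201 against 37.6 and 38.5 FPKM (2.38 ± 0.41, limma adjusted p = 0.000209). Hspg2 was low in both layers, at 0.843 and 0.514 against 0.595 and 0.50 FPKM at E5.5 and 0.316 and 0.275 against 0.791 and 0.551 at E6.5.

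Collagen IV, Nid1, Lamc1 and Sparc kept their calls at both stages under each library left out and each other setting tried. Calls for the alpha chains and Lamb1 were less firm. At E5.5, Lama1 missed the threshold without any single 1 of the 4 libraries (limma adjusted p = 0.0626 to 0.101), Lama5 without epiblast replicate 1 or visceral endoderm replicate 1 (0.115 and 0.189), and Lamb1 without epiblast replicate 2 or visceral endoderm replicate 1 or 2 (0.334, 0.284 and 0.0501). At E6.5, Lama1 and Lama5 missed it without any single 1 of the 4 libraries (0.0678 to 0.295 and 0.0538 to 0.215), and Lamb1 without visceral endoderm replicate 2 (0.0677).

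Without a filter on low values Lama1 (limma adjusted p = 0.0544) and Lamb1 (0.0946) were not called at E5.5, nor Lama1 (0.0960) at E6.5, and with the replicate number as a block Lamb1 was not called at E5.5 (0.0538). With a pseudocount of 0.1 FPKM Lama5 (0.0579) and Lamb1 (0.0556) were not called at E5.5, nor Lama5 at E6.5 (0.0780), and with quantile normalization Lama1 was not called at E6.5 (0.0684). On the E5.5 libraries alone Lama5 (0.0644) and Lamb1 (0.125) were not called. At E5.5 quantile normalization moved the median of all genes from -0.36 to -0.04 and the share of higher calls from 26.1% to 47.7%, with 8 members still called.

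**Figure D3:**
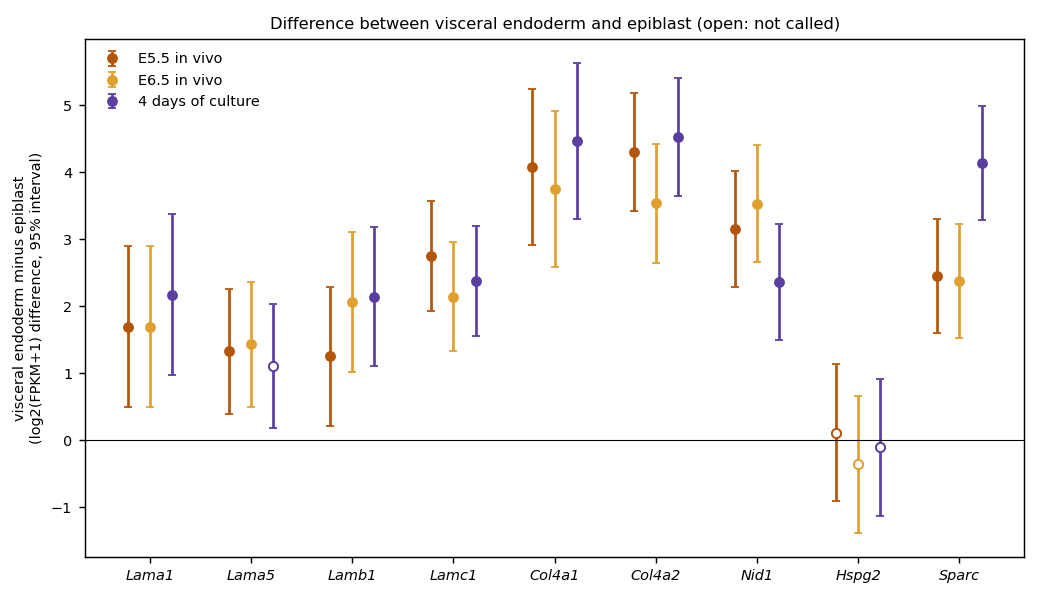
Difference in log2(FPKM+1) between visceral endoderm and epiblast for each gene at E5.5, at E6.5 and after 4 days of culture. Points are limma estimates from 2 libraries per tissue, and open points did not meet the call. Bars are 95% intervals whose width comes from the fit of all 15 groups, not from those 2 libraries alone. Col4a1 and Col4a2 lie between 3.54 and 4.52 in the 3 settings, and Hspg2 lies near 0 in each.

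Between E5.5 and E6.5 no member passed the test in either layer. Calls numbered 0 of 9 in epiblast (0.978% of all genes called, 0.43% higher) and 0 of 9 in visceral endoderm (27.2% called, 24.7% higher and 2.49% lower) by limma, and 0 of 9 passed an unadjusted p of 0.05 in either. Over all genes the median difference in visceral endoderm was 0.50 (0.05 after quantile normalization), while the member median was -0.03. Quantile normalization moved the share of higher calls there from 90.8% to 37.4%, with 0 members called.

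Lamb1 had the largest difference in visceral endoderm, from 26.0 and 16.0 FPKM to 35.4 and 48.5 (0.99 ± 0.50, limma adjusted p = 0.140), without overlap. The change of the gap between layers from E5.5 to E6.5 was tested directly. It called 0 of 9 members by limma (6.07% of all genes, 5.28% higher, 0 members at an unadjusted p under 0.05), with estimates from -0.76 ± 0.60 (Col4a2) to 0.81 ± 0.70 (Lamb1). All genes had a median of 0.41 in that test (0.04 after quantile normalization), and quantile normalization moved the share of higher calls from 86.9% to 33.1%. 

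Of 12 other basement membrane genes tested, 4 were higher and 1 lower than in epiblast at E5.5 (9.6% and 27.1% of all genes), and 7 higher and 0 lower at E6.5 (9.58% and 6.95% of all genes). Tinagl1 was 10.8 against 0.104 FPKM at E5.5 (3.42, limma adjusted p = 4.08e-06), and Egflam, a dystroglycan ligand, 12.8 against 0.131 at E6.5 (3.59, limma adjusted p = 5.73e-07). Col18a1 was the lower gene at E5.5, with 5.14 FPKM in visceral endoderm and 43.5 in epiblast (-2.63, limma adjusted p = 0.00472).

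Among 11 collagen biosynthesis genes 4 were higher at E5.5, against 9.6% of all genes, and 0 lower. At E6.5, 1 of the 11 was higher, a share near the 9.58% of all genes, and 0 were lower. Serpinh1, the collagen chaperone HSP47, was 95.4 against 10.5 FPKM at E5.5 (3.39, limma adjusted p = 0.00324). Of 9 receptors tested, 0 were higher and 3 lower in visceral endoderm at E5.5, where 27.1% of all genes were lower, and 1 was higher and 2 lower at E6.5, where 9.58% of all genes were higher and 6.95% lower. Sdc1, a syndecan, was 0.625 FPKM in visceral endoderm and 18.2 in epiblast at E5.5 (-3.37, limma adjusted p = 0.00127). Of 5 other laminin chains tested 0 were called at either stage, and Col4a3, Col4a4, Col4a5 and Col4a6 did not pass the filter on low values.

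Markers of parietal endoderm were read as well, because that tissue is a rich source of basement membrane. Of its 3 markers, Thbd was at 0 to 0.0698 FPKM in the visceral endoderm libraries of E5.5 and E6.5 and at 0.0510 and 0.0595 in E4.0 inner cell mass. In the former Plat was at 0.380 to 5.82 and Pth1r at 5.22 to 38.2 FPKM. The 3 summed to 15.6 and 38.6 FPKM in E5.5 visceral endoderm, at most 11.9 at E6.5, 0.987 to 4.79 in epiblast and 6.67 to 9.12 in E4.0 inner cell mass, and their part in the member values was not tested. Maternal decidua markers (Prl8a2, Dcn, Pgr, Lum) summed to at most 0.143 FPKM in visceral endoderm and to 4.64 and 5.72 in E5.5 epiblast.

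Gastrulation brought few calls. From E6.5 epiblast to E7.5 ectoderm limma called 0 of 9 members (1.07% of all genes), with 0 at an unadjusted p under 0.05. The median of all genes was -0.15 there (0.00 after quantile normalization), and quantile normalization moved the share of higher calls from 46.2% to 65.2%. From E6.5 epiblast to primitive streak it called 0 of 9 (3.74% of all genes, 2.56% higher). At an unadjusted p under 0.05, a level not counted over all genes, there were 2 members, Lamb1 and Sparc.

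In the streak these 2 genes, neither of them called, had estimates in opposite directions. Lamb1 was 24.7 and 26.1 FPKM there and 9.53 and 8.80 in E6.5 epiblast (1.38 ± 0.50, limma adjusted p = 0.165). Sparc was 23.9 and 17.4 against 37.6 and 38.5 FPKM (-0.87 ± 0.41, limma adjusted p = 0.395). The libraries did not overlap in either gene. Lamb1 passed with array weights (limma adjusted p = 9.85e-05) and on the 4 libraries alone (0.0184). Those weights came out equal for both libraries of each group, so they weighted groups and not single libraries.

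Lamc1 did not follow Lamb1, at 3.26 and 2.65 FPKM in the streak against 2.86 and 2.81. The Lamb1 to Lamc1 ratio was therefore highest in the streak, 7.58 and 9.85, against 3.13 to 3.33 in E6.5 epiblast, 1.19 and 1.24 in E5.5 visceral endoderm and 2.36 and 2.88 in E6.5 visceral endoderm. It was 3.72 and 6.35 in E7.5 ectoderm, 5.80 and 4.05 in E5.5 epiblast and 4.62 and 5.11 in mesoderm. These ratios were not tested.

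From streak to mesoderm Sparc rose, from 23.9 and 17.4 to 97.0 and 85.8 FPKM (2.11 ± 0.41, limma adjusted p = 0.00228), the 1 member called (3.38% of all genes, 1.57% higher). It did not pass without streak replicate 2 (1.89, limma adjusted p = 0.0556). Col4a2 was 5.72 and 6.57 FPKM in mesoderm against 2.41 and 2.59 (1.03, limma adjusted p = 0.336). Lama5 was 0.631 and 0.455 against 2.22 and 2.41 FPKM (-1.11, limma adjusted p = 0.309). With array weights, or on these 4 libraries alone, Col4a2 (0.000382 and 0.0496) and Lama5 (0.000254 and 0.0318) passed too.

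Mesoderm held the lowest Lama5 of the 11 in vivo groups. Against the mean of the other E7.5 tissues limma called 0 of 9 members (4.71% of all genes, 2.78% lower). At an unadjusted p under 0.05, a level not counted over all genes, there were 2 members. Those were Lama5 (-1.09 ± 0.36, limma adjusted p = 0.0946), lower in both mesoderm libraries than in each of the other 6, and Sparc (0.89 ± 0.33, 0.155). Lama5 passed with a pseudocount of 0.1 FPKM (-1.88, 0.0403), with array weights (0.000449) and on the E7.5 libraries alone (0.0113).

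Lama1 was 1.94 and 2.30 FPKM in mesoderm, so that it was the more abundant alpha chain there, as in the inner cell mass. Hspg2 was 1.36 and 1.34 FPKM in mesoderm, above the 0.477 to 0.832 of the other E7.5 libraries (0.55 ± 0.40, limma adjusted p = 0.805). Endothelium and blood progenitor markers (Kdr, Tal1, Pecam1, Cdh5) summed to 20.1 and 20.4 FPKM in mesoderm and 0.141 to 1.60 in the other E7.5 libraries, and their part was not tested. Fn1, fibronectin, was 65.6 FPKM in mesoderm against 18.1 in the other tissues (2.20, limma adjusted p = 0.00134), 1 of 4 interstitial matrix genes of 6 called higher, against 1.93% of all genes.

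E7.5 endoderm had the highest collagen IV of that stage. Against the other 3 tissues 4 of 9 members were higher, Col4a1, Col4a2, Nid1 and Sparc, with 10.3% of all genes called higher and 1.93% lower. Col4a1 was 26.1 and 28.6 FPKM against 5.16 to 14.2 (1.64 ± 0.46, limma adjusted p = 0.0145), and Col4a2 12.7 and 12.3 against 1.74 to 6.57 (1.66 ± 0.35, limma adjusted p = 0.00140).

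Nid1 was 4.25 and 4.89 FPKM in endoderm against 0.210 to 2.82 elsewhere (1.40 ± 0.34, limma adjusted p = 0.00519). Sparc was 133 and 117 against 17.4 to 97.0 FPKM (1.49 ± 0.33, limma adjusted p = 0.00262). In each the endoderm libraries lay above all 6 others, with mesoderm nearest. Without endoderm replicate 1 only Col4a2 was called (Col4a1 at 0.109, Nid1 at 0.0509 and Sparc at 0.0612), and without replicate 2 Col4a1 (0.147) and Nid1 (0.0894) were not. Col4a1 also missed the threshold with a pseudocount of 0.1 FPKM (0.0585), and quantile normalization moved the median of all genes from 0.02 to -0.12 and the share of higher calls from 84.2% to 67.7% with 4 members called.

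Set against E6.5 visceral endoderm, whose markers these libraries share, E7.5 endoderm was lower in 2 of 9 members, with 4.26% of all genes called, 0.875% lower and 3.39% higher. Lamc1 was 3.76 and 5.47 against 12.3 and 20.5 FPKM (-1.61 ± 0.39, limma adjusted p = 0.0152), and Nid1 4.25 and 4.89 against 14.2 and 14.1 (-1.44 ± 0.42, limma adjusted p = 0.0478). In both the libraries were apart.

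Lama5, at 2.43 and 3.59 against 8.01 and 11.5 FPKM, was not called (-1.42 ± 0.45, limma adjusted p = 0.0816). The member median was -1.01 and that of all genes 0.08. The Lamc1 call was lost without E6.5 visceral endoderm replicate 2 (0.285) or endoderm replicate 1 (0.216), with a pseudocount of 0.1 (0.0592) and on the 4 libraries alone (0.0682). That of Nid1 was lost without any single 1 of the 4 libraries (0.184 to 0.315), without a filter (0.0549), with a filter at 5 FPKM (0.0620) and with a pseudocount of 0.1 (0.153). With array weights 5 members were called.

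Cultured embryos were measured in 2 tables of their own, and levels are compared only within a table. After 4 days, visceral endoderm exceeded epiblast for 7 of 9 members, against 13.6% of all genes called higher and 10.8% lower. Those not called were Lama5, at 5.99 and 5.05 against 2.08 and 1.97 FPKM (1.10 ± 0.45, limma adjusted p = 0.0691), and Hspg2.

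Sparc was 305 and 419 FPKM in visceral endoderm and 15.8 and 23.5 in epiblast (4.14 ± 0.41, limma adjusted p = 2.30e-07). Col4a1 was 24.7 and 45.3 against 0.356 and 0.790 FPKM (4.47 ± 0.56, limma adjusted p = 4.87e-06), and Col4a2 19.1 and 30.4 against 0 and 0.191 (4.52 ± 0.42, limma adjusted p = 1.31e-07). Neither epiblast library reached 1 FPKM of collagen IV.

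Lamc1 was 11.6 and 17.3 against 1.36 and 2.61 FPKM (2.38 ± 0.39, limma adjusted p = 0.000113), Lamb1 14.9 and 28.8 against 3.89 and 3.95 (2.14 ± 0.50, limma adjusted p = 0.00274). Nid1 was 7.71 and 2.62 against 0.0782 and 0.102 FPKM (2.36 ± 0.42, limma adjusted p = 0.000222). Lama1 was 1.53 and 9.79 against 0.0245 and 0.320 FPKM (2.17 ± 0.58, limma adjusted p = 0.00733).

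The cultured visceral endoderm libraries differed between themselves in Lama1, Nid1 and Hspg2. Lama1 was not called without visceral endoderm replicate 2 (1.12, limma adjusted p = 0.198) or epiblast replicate 1 (1.99, 0.0638), nor Lamb1 without visceral endoderm replicate 2 (1.69, 0.0513). On these 4 libraries alone 3 members were called, Col4a1, Col4a2 and Sparc. Epiblast markers summed to 15.3 and 158 FPKM in the 2 cultured visceral endoderm libraries, and their part was not tested.

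In culture 9 of 11 collagen biosynthesis genes were higher in visceral endoderm and 0 lower, against 13.6% and 10.8% of all genes. P4ha1 was 43.1 against 1.89 FPKM (3.77, limma adjusted p = 9.22e-06). Of 12 other basement membrane genes 7 were higher and 0 lower, led by Tinagl1 at 40.4 against 0.718 FPKM (4.72, limma adjusted p = 7.85e-08). No test was run between cultured and in vivo tissues.

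Between 1 and 2 days of culture limma called 0 of 9 members (6.46% of all genes). At an unadjusted p under 0.05, a level not counted over all genes, there were 2 members, Lamc1 and Col4a1. Lamc1 was 0.604 and 1.16 FPKM at 1 day and 2.65 and 3.85 at 2 days (1.18 ± 0.39, limma adjusted p = 0.0757). Col4a1 was 0.817 and 3.67, then 4.58 and 8.45 FPKM (1.32 ± 0.56, limma adjusted p = 0.163).

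Nid1 was 9.65 and 2.39 FPKM at 1 day and 2.28 and 2.36 at 2 days (-0.85 ± 0.42, limma adjusted p = 0.230). Without 1-day replicate 2 all 3 passed (Lamc1 at 1.39 with limma adjusted p = 0.0489, Col4a1 at 2.00 with 0.0358, Nid1 at -1.68 with 0.004995), and Lamc1 passed with a pseudocount of 0.1 FPKM (1.81, 0.0344). Trophectoderm markers summed to 1259 to 3437 FPKM in these 4 libraries, and their part was not tested.

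**Figure D4:**
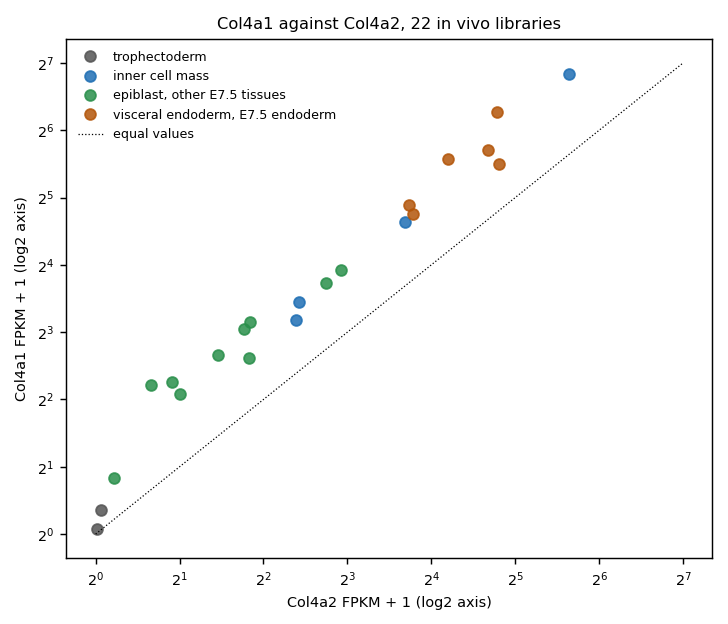
Col4a1 against Col4a2 in 22 in vivo libraries, as FPKM + 1 on log2 axes. Each point is 1 library coloured by tissue and the dotted line marks equal values. Points run along a single band above that line, from trophectoderm near the origin to E4.0 inner cell mass replicate 1 at the top (Col4a1 114 and Col4a2 49.0 FPKM).

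Over the 22 in vivo libraries Col4a1 and Col4a2 had r = 0.983 on log2(FPKM+1), the highest of 36 pairs of members, whose median was 0.61. In the 16 in vivo libraries with both at 1 FPKM or more, Col4a1 exceeded Col4a2 1.63-fold to 3.07-fold (median 2.21). The ratio ran wider in libraries with little Col4a2, at 6.23 in E5.5 epiblast replicate 1 and at 3.22 and 4.29 in E6.5 epiblast, and it was 0.609 and 1.73 after 1 day and 1.84 and 3.76 after 2 days of culture. The 547 gene pairs with overlapping head-to-head start windows, the Col4 pair included, had a median r of 0.45 (quartiles 0.09 and 0.68), and no other of them reached the Col4 value. Libraries of a group share their tissue, so the 22 are not independent points.

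The genes most like each member were taken by Pearson r over the 22 libraries, among the 4687 tested genes whose in vivo mean reached 10 FPKM. Lama1, Lama5, Col4a2, Nid1 and Hspg2 do not reach that mean, so these members could not be listed as the match of another. Col4a1 was closest to P4ha1 (0.929), Flrt3 (0.917) and Apoe (0.903), and Col4a2, after Col4a1, to Porcn (0.915) and Cst3 (0.909). Sparc was closest to Tfpi (0.900), P4ha1 (0.883) and Col4a1 (0.873). P4ha1, needed for stable collagen triple helices, was thus among the top 3 of Col4a1 and Sparc.

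Lamb1 was closest to Cyr61 (0.872), Tmem39a (0.830) and Col4a1 (0.820). Among the candidates Lamc1 was closest to Pgam2 (0.855), Ssr4 (0.850) and Ccdc107 (0.839). With members that were not candidates, Lamc1 had r = 0.855 (Nid1) and 0.841 (Lama1), and Hspg2 had 0.626 (Lama1). Lama1 was closest to Tbx3 (0.848), Lamc1 (0.841) and Pgam2 (0.822), and Lama5 to Lefty1 (0.799), Cbx7 (0.784) and Pga5 (0.782). Nid1 was closest to Nagk (0.940), Serpinb9b (0.939) and Tex264 (0.934). Hspg2, whose pattern rests on few libraries above 1 FPKM, reached 0.698 with Fntb, 0.649 with Zfp593 and 0.620 with Gps2. These values describe 22 libraries in 11 tissues and are given without a test.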

How the data were processed

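Expression values were deposited by the authors as FPKM, and the submitters' processing notes name TopHat2 2.0.11, Cufflinks 2.0.2 and the build mm9. The tables were 22 in vivo libraries, 4 of 4-day culture and 4 of 1-day and 2-day culture. In the in vivo file, 27 symbols turned into dates were left out, and values of 1e-06 or less were set to 0. Genes that reached 1 FPKM in 2 or more of the 30 libraries entered 1 limma 3.58.1 fit (R 4.3.3) on log2(FPKM+1), with 15 groups, a mean-variance trend and 15 residual degrees of freedom. Comparisons were made only within a table, 17 in all. On this scale a difference understates the change of a low gene. Adjusted p is Benjamini-Hochberg over all genes of a comparison. Standard errors and 95% intervals come from limma, and SDs are over 2 libraries.

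The members, gene lists and comparisons were chosen with earlier results of these data known. All 9 members are named. From other lists, at most 3 called genes per list and comparison were eligible, those with the largest difference that reached a mean of 10 FPKM in either group with no overlap. Col4a3 to Col4a6 and the genes with a value beside a marker list are named outside that rule. P3h1 and Colgalt1 were read under their older symbols Lepre1 and Glt25d1, and Mia3 was not matched. Alternatives were quantile normalization, limma's array weights, the replicate number as a block, a pseudocount of 0.1, and a filter at 5 FPKM or none. The array weights came out equal for the 2 libraries of each group, from 0.201 (1-day culture) to 4.01 (E7.5 mesoderm), and so weighted groups. Further alternatives were a fit restricted to the compared groups and leaving out single libraries. With a library left out, the lone library of its group was assumed to vary like the other groups. The fit was also run on simulated data, with changes set only in genes of higher mean level and the same spread in every group. That run does not cover low genes such as Lama1 or Hspg2, and its outcome is not given here. The other 48 samples (39 STEM-seq, 7 Hi-C, 2 MethylC-seq) were not analysed here. RefSeq windows carry build GRCm38.p6, and no coordinates were moved between builds. Summaries and figures were made in Python 3.11.15 (pandas 2.3.3, numpy 2.4.6, matplotlib 3.10.9).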

Additional observations from a re-analysis of the deposited data

How the results depend on the processing

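With 2 libraries per group the design is small, and the pooled spread of 15 groups carries most calls. For the 56 member differences called, other settings kept the call 345 times and lost it 44 times, and leaving out a library kept it 181 times and lost it 59 times. None reversed. The cause of the changes below was not tested, beyond the fewer libraries and residual degrees of freedom of the fit on only the groups compared. That fit called 3 members in place of 5 between E3.5 inner cell mass and trophectoderm, 2 in place of 7 from E3.5 to E4.0 inner cell mass, 4 in place of 8 from E4.0 inner cell mass to E5.5 epiblast, 0 in place of 6 to E5.5 visceral endoderm, 1 in place of 2 between E7.5 endoderm and E6.5 visceral endoderm and 3 in place of 7 between the 4-day cultured tissues. It called 1 in place of 0 from E6.5 epiblast to streak, 3 in place of 1 from streak to mesoderm and 1 in place of 0 between mesoderm and the other E7.5 tissues. Array weights called 1, 3 and 1 in these 3 comparisons and 5 in place of 2 between E7.5 endoderm and E6.5 visceral endoderm. In the last, no filter called 1, a filter at 5 FPKM called 1 and a pseudocount of 0.1 FPKM called 0. That pseudocount also called 1 in place of 0 between mesoderm and the other E7.5 tissues and between 1 and 2 days of culture. With each library left out in turn, called members numbered 3 to 5 between E3.5 inner cell mass and trophectoderm, 2 to 8 from E3.5 to E4.0, 7 to 8 from E4.0 to E5.5 epiblast and 3 to 5 to E5.5 visceral endoderm. They numbered 5 to 6 between visceral endoderm and epiblast at E5.5 and at E6.5, 1 to 4 between E7.5 endoderm and the other tissues, 0 to 1 between E7.5 endoderm and E6.5 visceral endoderm, 0 to 1 from streak to mesoderm, 5 to 7 in 4-day culture, 0 to 3 between 1 and 2 days, and 0 to 0 in the other 6 comparisons.

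The replicate number entered as a block changed 1 count, from 8 to 7 members between visceral endoderm and epiblast at E5.5, and no other. The labels give shared numbers and name no shared litter or day, and deviations of same-numbered libraries correlated at -0.087 to 0.438, so the fits without the block are the ones reported. Depth is unknown, which leaves levels under 1 FPKM, as for Hspg2, with no stated precision.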
